A study of Mus musculus with 4 samples.

Results

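The sodium pump genes described here are 6 genes, the beta subunits Atp1b1, Atp1b2 and Atp1b3 and the FXYD proteins Fxyd1, Fxyd6 and Fxyd7, out of 19938 genes named on the array. They were taken by name: each probe set whose only gene symbol was one of the 6 was read, and a gene with several probe sets was represented by the one with the highest mean over the 4 arrays. Gene expression had been measured in pontine nucleus dissected from mice of the ICR background, with no treatment or mutation named in the labels, at embryonic day 17.5 (E17.5) and, after birth, on days 1 (P1), 5 (P5) and 14 (P14). Tissue was pooled within an age, from 27 mice at E17.5, 16 at P1, 13 at P5 and 12 at P14, and a single Affymetrix array was hybridised with each pool. The study thus has 4 arrays from 68 mice and no replicate, so every difference below is one between single arrays and no test was possible.

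The sodium pump exports sodium and imports potassium at the cost of ATP, and neurons and glia rely on it to restore their ion gradients after activity. It is built of a catalytic alpha subunit and a beta subunit, a glycoprotein that brings the alpha subunit to the cell surface and also takes part in adhesion between cells. A small membrane protein of the FXYD family can join them and alters the affinity of the pump for its ions. The alpha subunits of the brain were not analysed here.

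Values are log2 signals, so a difference of 1 is a 2-fold difference. A gene counted as past the level filter when its highest array reached 8.41, the median of all probe sets with a single symbol, which 10901 of the 19938 genes and all 6 members did. All members were over that level on all arrays, except Fxyd1, which stood at 8.39 at E17.5. Probe sets of the same gene gave the only error estimate the data allow. Over 645 genes with several probe sets, the standard deviation (SD) of a difference between 2 arrays was 0.12 for P1 against E17.5, 0.18 for P5 against P1, 0.14 for P14 against P5, 0.10 for P14 against P1, 0.18 for P5 against E17.5 and 0.13 for P14 against E17.5. It holds probe noise and not the spread between pools of mice.

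The arrays labelled P5 and P14 did not follow the order of their ages. Of the 2120 genes that spanned at least 2-fold, 86.1% had their P14-labelled value somewhere between P1 and the P5-labelled array. Myelin genes stood far higher on the P5-labelled array than on any other, with a median over 13 genes of 7.50 at E17.5, 8.16 at P1, 12.44 on the P5-labelled array and 9.31 on the P14-labelled array. The labels are kept as deposited, and the comparison of P1 with E17.5 is the only one that uses neither of these arrays. Pontine neurons were represented on all 4 arrays, with 6 to 7 of 8 markers, such as the homeobox gene Barhl1, at or over the level filter on each. The median of the 8 was 11.46 at E17.5, 10.87 at P1, 9.86 on the P5-labelled array and 10.56 on the P14-labelled array.

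Sequence upstream of the start of transcription is shown for the 4 members whose promoters were given. Among them, Atp1b1 and Fxyd1 were higher after birth, Fxyd6 was lower on the P5-labelled array, and Atp1b3 varied little. Any link between sequence and course was not tested. No window is shown for Atp1b2 or for Fxyd7, whose course was another. Each window is the 250 bases before a RefSeq start in mouse build GRCm38.p6, read 5′ to 3′ on the gene's strand. They lie at chr1:164458356-164458605 on the minus strand for Atp1b1, chr7:31054854-31055103 on the minus strand for Fxyd1, chr9:45369935-45370184 on the plus strand for Fxyd6 and chr9:96364432-96364681 on the minus strand for Atp1b3, the upstream one of its 2 windows. Capitals mark a match on either strand to any of 4 motifs, which do not overlap in these windows. The TATA box was searched as TATAAA. For the CCAAT box the letters were CCAAT. The GC box was given by GGGCGG. An E-box was counted where CAGCTG stood.
Atp1b1: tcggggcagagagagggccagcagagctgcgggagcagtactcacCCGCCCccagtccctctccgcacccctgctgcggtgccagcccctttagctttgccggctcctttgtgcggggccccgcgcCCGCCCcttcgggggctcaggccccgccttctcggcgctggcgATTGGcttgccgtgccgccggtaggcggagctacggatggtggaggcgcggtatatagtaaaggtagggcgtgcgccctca
Fxyd1: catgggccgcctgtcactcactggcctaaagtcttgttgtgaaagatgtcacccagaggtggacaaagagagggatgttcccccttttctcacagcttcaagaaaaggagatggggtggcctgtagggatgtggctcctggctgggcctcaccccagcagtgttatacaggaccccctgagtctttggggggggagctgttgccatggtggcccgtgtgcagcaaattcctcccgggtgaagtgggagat
Fxyd6: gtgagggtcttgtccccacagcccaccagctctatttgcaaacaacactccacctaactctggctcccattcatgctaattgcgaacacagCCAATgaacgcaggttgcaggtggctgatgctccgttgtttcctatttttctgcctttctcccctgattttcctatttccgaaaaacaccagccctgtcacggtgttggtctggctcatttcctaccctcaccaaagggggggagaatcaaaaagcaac
Atp1b3: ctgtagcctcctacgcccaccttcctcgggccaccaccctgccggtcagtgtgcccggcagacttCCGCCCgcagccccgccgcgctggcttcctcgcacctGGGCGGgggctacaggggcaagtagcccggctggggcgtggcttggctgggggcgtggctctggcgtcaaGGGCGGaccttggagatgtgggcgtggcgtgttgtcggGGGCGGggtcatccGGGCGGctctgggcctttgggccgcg
The Atp1b1 window held 2 GC boxes and 1 CCAAT box with 24 CpG dinucleotides, and the Atp1b3 window held 5 GC boxes, also with 24 CpG dinucleotides. The Fxyd6 window held 1 CCAAT box and 5 CpG dinucleotides, and the Fxyd1 window held none of the 4 motifs and 3 CpG dinucleotides. Of 32851 such windows in the mouse, 33.8% held a CCAAT box, 32.7% a GC box, 12.4% a TATA box and 13.0% an E-box, and the median window had 6 CpG dinucleotides. The other Atp1b3 window held none of the 4 motifs and 35 CpG dinucleotides.

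Over the 4 arrays, 5 of the 6 members had at least a 2-fold range, against 19.4% of all genes past the level filter. The members took different courses. Atp1b1, Atp1b2 and Fxyd1 shared one order, lowest at E17.5, then P1, then the P14-labelled array, and highest on the P5-labelled array, an order seen in 15.7% of all genes. Fxyd7 was high on both late arrays, Fxyd6 was low on the P5-labelled array alone, and Atp1b3 varied by 0.19 in all. In pooled tissue, more cells of a type and more RNA per cell cannot be told apart.

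**Figure D1:**
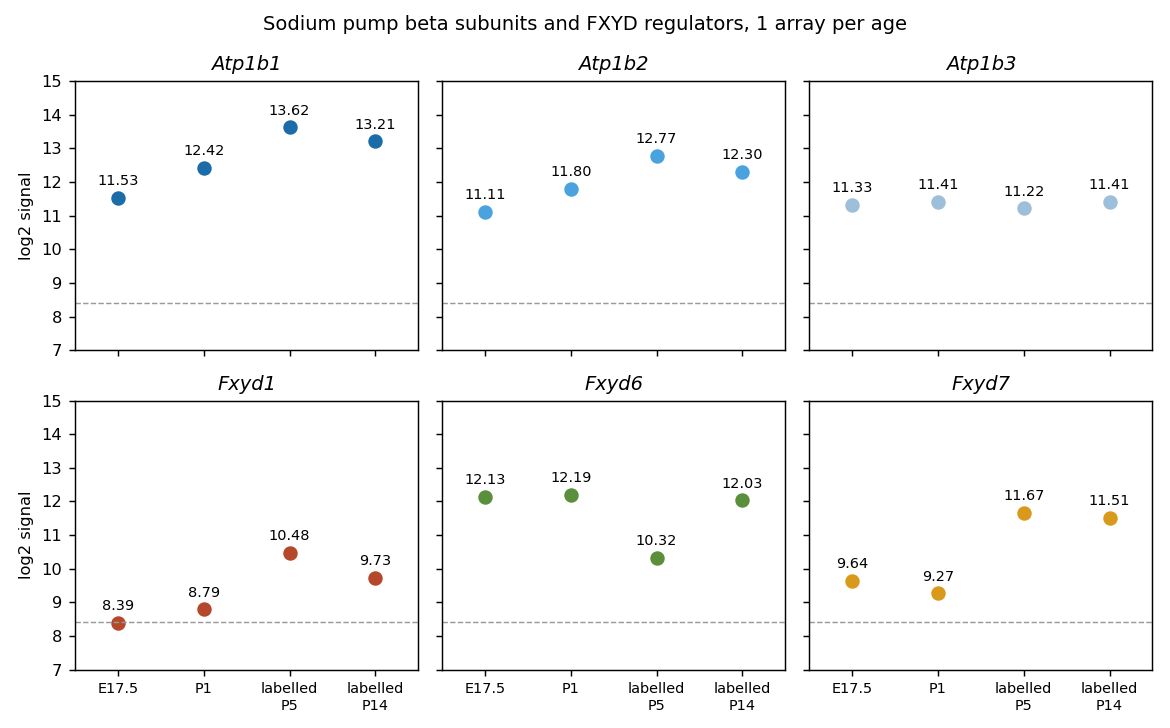
Log2 signal of each member (vertical axis) on the 4 arrays (horizontal axis, by deposited label); each point is 1 array and the dashed line is the level filter at 8.41. Atp1b1, Atp1b2 and Fxyd1 stand highest on the P5-labelled array, Fxyd7 is at 11.67 and 11.51 on the 2 late arrays, and Fxyd6 drops to 10.32 on the P5-labelled array.

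Of the beta subunits, Atp1b1 had the largest range. Atp1b1, the beta1 subunit and the widespread partner of the alpha subunits in neurons, had a signal of 11.53 at E17.5, 12.42 at P1, 13.62 on the P5-labelled array and 13.21 on the P14-labelled array. No 2 of these levels lay closer than 0.41, which is 2.92 times the SD between probe sets for that pair of arrays. Atp1b1 was 1.85-fold higher at P1 than at E17.5, a difference of 0.89 that 124 of the 10901 genes exceeded. Against E17.5 it was 4.26-fold higher on the P5-labelled array and 3.20-fold higher on the P14-labelled array.

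Atp1b2 encodes the beta2 subunit, first described as the adhesion molecule on glia. Its signal was 11.11 at E17.5, 11.80 at P1, 12.77 on the P5-labelled array and 12.30 on the P14-labelled array. It thus ran in the same order as Atp1b1, with smaller differences in every comparison except that of the 2 late arrays, which was −0.47 for Atp1b2 and −0.41 for Atp1b1. Atp1b2 was 1.61-fold higher at P1 than at E17.5 (difference 0.69, exceeded by 291 genes) and 3.16-fold higher on the P5-labelled array than at E17.5. The difference of 0.97 between P1 and the P5-labelled array fell just under 2-fold.

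Atp1b3, the beta3 subunit found in many tissues, had a signal of 11.33 at E17.5, 11.41 at P1, 11.22 on the P5-labelled array and 11.41 on the P14-labelled array. The values for P1 and the P14-labelled array were equal, and the largest of its 6 differences was 1.35 times the SD between probe sets. It was the one member with 2 probe sets. The other probe set gave 10.85, 11.00, 10.71 and 10.98 in the same order of arrays. It was likewise lowest on the P5-labelled array, by 0.29 against P1 where the probe set used gave 0.19.

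The 3 FXYD regulators differed from one another, Fxyd1 sharing the order of Atp1b1 and Atp1b2. Fxyd1, phospholemman, a target of protein kinases that is best known from heart muscle, had a signal of 8.39 at E17.5, 8.79 at P1, 10.48 on the P5-labelled array and 9.73 on the P14-labelled array. All 4 levels were set apart by at least 0.40. Between P1 and the P5-labelled array Fxyd1 was 3.23-fold higher, a difference of 1.69 that 345 genes exceeded. Its differences from E17.5, 2.09 on the P5-labelled array and 1.34 on the P14-labelled array, start from a level just under the filter, so no fold is given for them.

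Fxyd7, a brain FXYD protein known in rodents from neurons and glia, had a signal of 9.64 at E17.5, 9.27 at P1, 11.67 on the P5-labelled array and 11.51 on the P14-labelled array. The 2 late arrays stood together, 0.16 apart, and both stood well above the 2 early arrays. Fxyd7 was also the one member that was lower at P1 than at E17.5, by a difference of −0.37, or 3.15 times the SD between probe sets. Against P1, it was 5.28-fold higher on the P5-labelled array and 4.72-fold higher on the P14-labelled array. The difference of 2.24 between P1 and the P14-labelled array was exceeded by 1 gene of 10901, that of Dcn, the matrix proteoglycan decorin, at 2.66. Dcn stood at 7.16 at P1, under the level filter, so its difference is inexact. On the P5-labelled array against P1, 122 genes exceeded the 2.40 of Fxyd7.

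Fxyd6, phosphohippolin, an FXYD protein of brain and inner ear, ran the other way. Its signal was 12.13 at E17.5, 12.19 at P1, 10.32 on the P5-labelled array and 12.03 on the P14-labelled array. The 3 other arrays lay within 0.16 of each other, and the P5-labelled array alone was low. Fxyd6 was 3.66-fold lower there than at P1, a difference of −1.87, and 61 genes had a more negative one. From the P5-labelled array to the P14-labelled array it was 3.27-fold higher, and 38 genes had a larger difference. Without the P5-labelled array, the range of Fxyd6 was 0.16 and that of Fxyd7 was 2.24.

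Counted by comparison, E17.5 and P1 separated no member by 2-fold, while 0.826% of all genes were 2-fold higher at P1 and 0.275% lower. From P1 to the P5-labelled array, 3 members were at least 2-fold higher (Atp1b1, Fxyd1 and Fxyd7) and 1 was lower (Fxyd6), beside 8.96% of all genes higher and 3.94% lower. Against E17.5, these 3 genes and Atp1b2 were higher on the P5-labelled array and Fxyd6 was lower, beside 11.3% and 5.50%. For the P14-labelled array against E17.5, Atp1b1, Atp1b2, Fxyd1 and Fxyd7 were at least 2-fold higher, as were 4.55% of all genes, and no member was 2-fold lower, as were 1.19%. Against P1, only Fxyd7 was at least 2-fold higher on the P14-labelled array, beside 1.37% of all genes higher and 0.101% lower, and Fxyd1 (0.94) and Atp1b1 (0.79) came next. Between the 2 late arrays, Fxyd6 alone was 2-fold apart, higher on the P14-labelled array, where 2.16% of all genes were higher and 4.5% lower. These comparisons share arrays and are not independent of each other.

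The median difference of the 6 members was 0.24 for P1 against E17.5, where that of all genes was −0.06. It was 1.09 for P5 against P1 and 1.85 for P5 against E17.5, where those of all genes were 0.05 and −0.02. For P14 it was 0.65 against P1 and 1.27 against E17.5, where those of all genes were −0.01 and −0.08, and between the late arrays it was −0.29 beside −0.07. A median hides that Fxyd6 and Atp1b3 stood apart from the other 4 in most of these comparisons.

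**Figure D2:**
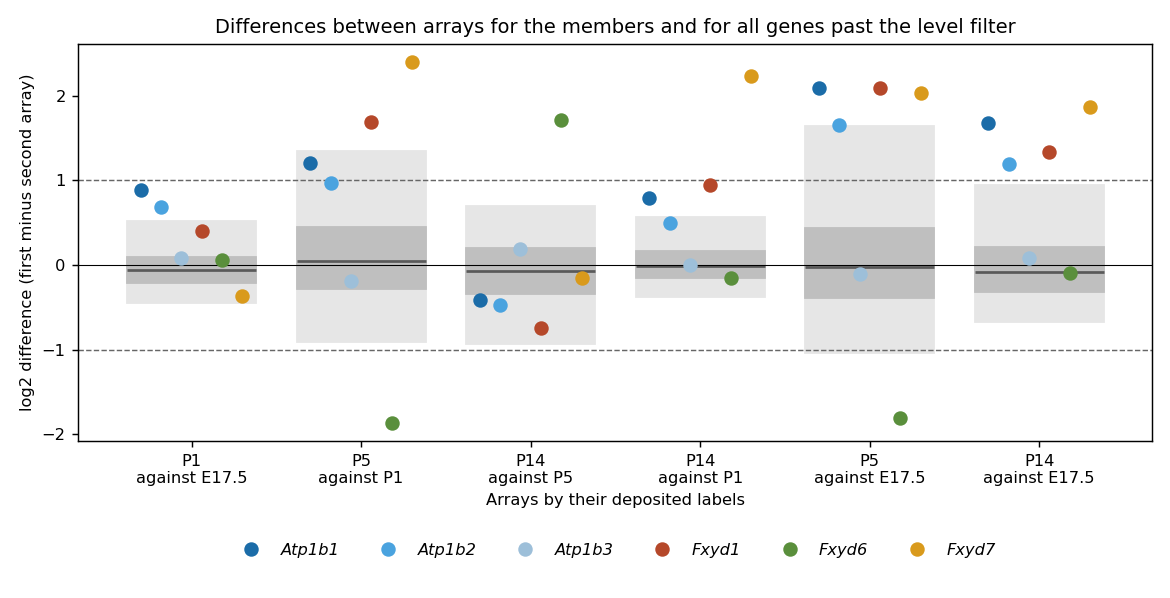
Log2 difference of each member (points, vertical axis) in each of the 6 comparisons (horizontal axis, first array minus second); grey boxes span the quartiles (dark) and the percentiles 5 to 95 (light) of all 10901 genes, with their median as a line, and dashed lines mark 2-fold. Fxyd7 at 2.24 lies far above the light box for P14 against P1, and Fxyd6 at −1.87 lies below it for P5 against P1.

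The members also differed in how far the P14-labelled array had moved from P1 towards the P5-labelled array. Fxyd7 had covered 93.3% of that distance. Atp1b1 had covered 65.8%, Fxyd1 55.6% and Atp1b2 51.5%, while Fxyd6 had covered 8.56%. Over the 1406 genes that were 2-fold apart on those 2 arrays, the median was 29.6%, with quartiles of 17.7% and 42.2%. Fxyd7, Atp1b1, Fxyd1 and Atp1b2 thus lay above the upper quartile and Fxyd6 below the lower one. Atp1b2, with a difference of 0.97 between those 2 arrays, is not itself among the 1406 genes.

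The genes whose course was most like that of each member were found by the distance between profiles centred on their own mean, over 4 arrays. For Atp1b1 they were Bche, which encodes butyrylcholinesterase (distance 0.057), the mitochondrial carrier Sfxn5 (0.065) and Trnp1 (0.085). For Atp1b2 they were the phosphodiesterase Pde8b (0.068), Tril (0.075) and the calpain inhibitor Cast (0.088). For Fxyd1 they were the small GTPase Rasd2 (0.036), the deubiquitinase Usp2 (0.068) and Lgi1, a secreted synaptic protein (0.10). For Atp1b3, which hardly moved, they were Gas1, Rab43 and Zfp37, all within 0.022.

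Fxyd6 and Fxyd7 had neighbours of other kinds. Those of Fxyd6 were Fgf13, an intracellular fibroblast growth factor that binds sodium channels (0.079), the choline transporter Slc5a7 (0.084) and Gap43, a protein of growth cones (0.13). Gap43 had a signal of 12.45 at E17.5, 12.62 at P1, 10.80 on the P5-labelled array and 12.51 on the P14-labelled array, so it too was low on the P5-labelled array alone. Fxyd7 had few close neighbours: after the GABA transporter Slc6a13 (0.14) came the heparanase gene Hpse at 0.37 and Vtn, which encodes vitronectin, at 0.52. Slc6a13, known from the meninges, had a signal of 7.64 at E17.5, 7.41 at P1, 9.64 on the P5-labelled array and 9.62 on the P14-labelled array. Among the members themselves, Atp1b1 and Atp1b2 lay 0.39 apart and Atp1b1 and Fxyd1 0.43 apart, closer than all but 70 and 90 of the genes, respectively, were to Atp1b1. Fxyd6 and Fxyd7 were the farthest apart, at 3.40.

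**Figure D3:**
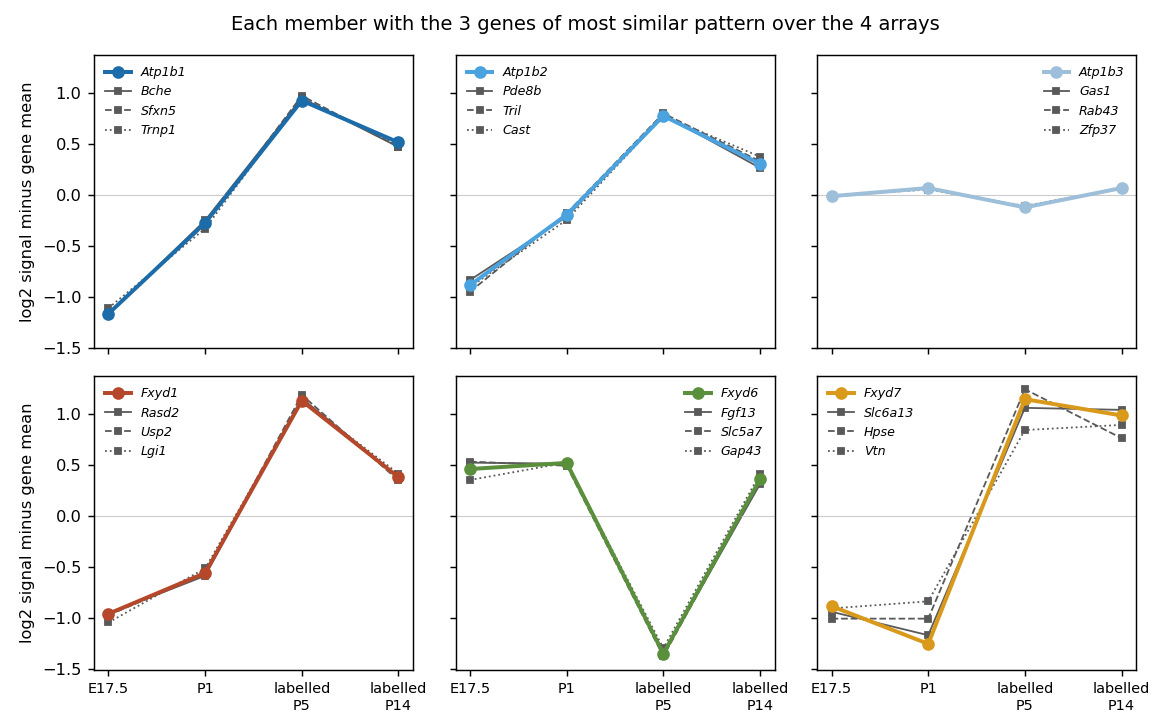
Log2 signal minus the gene's own mean over the 4 arrays (vertical axis) for each member (coloured) and the 3 genes with the nearest profile (grey), by array label. The neighbours of Atp1b1, Atp1b2 and Fxyd1 overlie them, while those of Fxyd7 beyond Slc6a13 are looser, at distances of 0.37 and 0.52.

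Markers of several cell types moved over the same arrays. The signal of 15 astrocyte markers, summed on the linear scale, was 14982 at E17.5, 25891 at P1, 52051 on the P5-labelled array and 38864 on the P14-labelled array. This was the order shown by Atp1b1, Atp1b2 and Fxyd1. Aldh1l1 (0.19), Sox9 (0.36), Aqp4 (0.01) and Slc1a3 (0.01) were instead higher on the P14-labelled array than on the P5-labelled array. The other astrocyte markers kept the order of the sum. On the P5-labelled array against P1, 8 of the 15 astrocyte markers were at least 2-fold higher, beside 8.96% of all genes. The 17 mature neuron markers summed to 31367, 32210, 86500 and 54128 in the same array order. On the P5-labelled array, 12 of 17 were at least 2-fold higher than at P1, beside the same 8.96% of all genes. Syt2 (−0.40), Nefl (−0.38), Slc17a6 (−0.27), Snap25 (−0.15), Scn4b (−0.11), Syt1 (−0.02) and Rbfox3 (−0.01) were instead lower at P1 than at E17.5. By their sums, other glial lists ran in the same order. The 13 myelin markers summed to 3406, 5670, 83105 and 12063, the 10 oligodendrocyte precursor markers to 7371, 11696, 23810 and 15843, and the 11 microglia markers to 3444, 5029, 8287 and 7396. Not every marker kept this order. On the P14-labelled array, Pdgfra, Lhfpl3, C1qb, C1qc and Laptm5 were higher than on the P5-labelled array. Lhfpl3 and Aif1 were highest at P1, and Mobp stood at 7.05 at both E17.5 and P1. Between E17.5 and P1, where Atp1b1 and Atp1b2 differed by 0.89 and 0.69, the median difference was 0.79 for the astrocyte markers, 0.70 for those of oligodendrocyte precursors, 0.54 for microglia, 0.47 for myelin and 0.15 for mature neurons. The part of any of these cell types in these members' levels was not tested.

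Like Fxyd6, the 14 young neuron markers were lowest on the P5-labelled array. Gap43, already named among the genes nearest to Fxyd6, is on this list, so its likeness here is not a separate observation. The 14 markers summed to 107528 at E17.5, 99245 at P1, 36541 on the P5-labelled array and 78055 on the P14-labelled array. Of the 14, 11 were at least 2-fold lower on the P5-labelled array than at P1, beside 3.94% of all genes. The summed signal of the 8 pontine neuron markers was lowest there too, at 20325, 15082, 9176 and 13293 in the order E17.5, P1, P5-labelled and P14-labelled. Of these markers Slc17a6, which is also on the mature neuron list, was instead highest on the P5-labelled array. Its signal was 11.44, 11.17, 11.57 and 11.49 in the same order. On the P5-labelled array, 6 of the 7 pontine markers that reached the filter stood at least 2-fold below E17.5, beside 5.5% of all genes. That far below P1 stood 3 of them, beside 3.94% of all genes. In the comparison of P14 with P1, where Fxyd6 differed by −0.16, 4 of the 14 young neuron markers were at least 2-fold lower. Among them were Igfbpl1 (−1.90), Cd24a (−1.33) and Mex3a (−1.26), and 0.101% of all genes were as far lower. For Fxyd7, the 12 mural and meningeal markers summed to 4843, 4819, 14252 and 10041 in the order of the arrays. The meningeal marker Ptgds alone made up 6383 of the sum on the P5-labelled array, and without it the other 11 summed to 4235, 3909, 7869 and 8958. Ptgds itself differed from Fxyd7, at 9.25, 9.83, 12.64 and 10.08, with a difference of 0.25 for P14 against P1 and −2.56 for P14 against P5. On the P14-labelled array against P1, 4 of the 10 over the filter had a difference of 1 or more, beside 1.37% of all genes. Dcn (2.66), Slc6a13 (2.21) and the growth factor Igf2 (1.92) were in the lead. Collagen gene Col1a2 was the other, at 1.16. At P1, Dcn (7.16) and Slc6a13 (7.41) were under the level filter, so their differences are inexact. Slc6a13 was already named as the gene nearest to Fxyd7 over the same arrays, so its likeness here is not a separate observation. The pericyte markers Pdgfrb (0.25), Rgs5 (0.42) and Kcnj8 (0.21) differed less in the same comparison. The parts of young neurons, pontine neurons and meningeal tissue in these 2 members' levels were not tested. All 10 markers of choroid plexus and ependyma, a tissue in which sodium pumps abound, were under the level filter on all arrays.

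**Figure D4:**
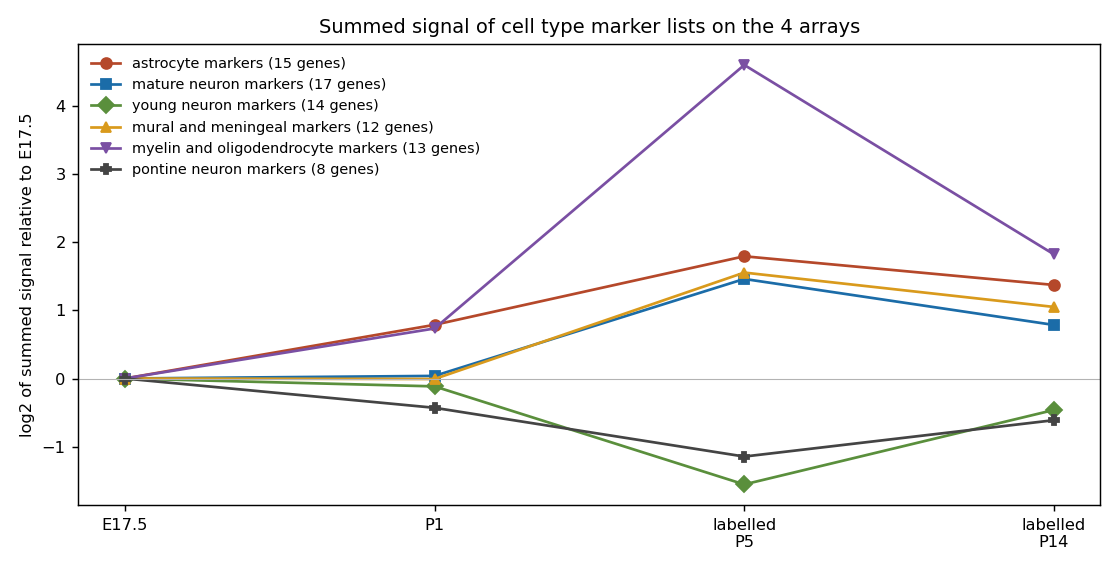
Summed linear signal of 6 marker lists on each array, as log2 relative to E17.5 (vertical axis), by array label (horizontal axis); each point is 1 array. Of the 6 lists, those of young neurons (from 107528 to 36541) and of pontine neurons (from 20325 to 9176) fall below the E17.5 level on the P5-labelled array, and mural and meningeal markers stay near it at P1 and stand higher on both late arrays.

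Other genes of the pump families were mostly low. Of 9 listed, 6 were read. The testis alpha subunit gene Atp1a4 (6.33 to 6.64), Atp1b4 (5.96 to 6.33), Fxyd2, the gamma subunit of kidney (6.98 to 7.32), Fxyd3 (7.11 to 7.43) and Fxyd4 (7.48 to 7.97) stayed under the level filter on all 4 arrays. Fxyd5, dysadherin, passed it, with a signal of 9.55 at E17.5, 9.44 at P1, 10 on the P5-labelled array and 10.07 on the P14-labelled array. Like Fxyd7 it was lowest at P1 and higher on both late arrays, by 0.56 and 0.63 against P1.

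Among 12 partners of the pump past the filter, 1 was at least 2-fold higher on the P5-labelled array than at P1. None was 2-fold lower. Of all genes, 8.96% were 2-fold higher and 3.94% lower, so the partners lay near the share of all genes. The higher partner was Mlc1 (1.05), an astrocyte membrane protein that binds the beta1 subunit and is also on the astrocyte marker list above. It was followed by the ankyrin gene Ank1 (0.92) and Hepacam (0.62), which encodes a glial adhesion molecule. Nkain3, whose product interacts with the pump, was at the other end at −0.90, with agrin, Agrn, at −0.77 and the kinase gene Src at −0.37. The median of the 12 was 0.03 in that comparison, where that of all genes was 0.05. Against E17.5 the medians lay farther apart, at 0.35 for P1, 0.33 for the P5-labelled array and 0.37 for the P14-labelled array, beside −0.06, −0.02 and −0.08 for all genes. On the P5-labelled array 3 of the 12 were at least 2-fold higher than at E17.5, Mlc1 (1.90), Hepacam (1.82) and Ank1 (1.62). Nkain3 (−1.44) was lower. These counts stand beside 11.3% of all genes higher and 5.5% lower.

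Medians for the P5-labelled array against P1 were higher in the lists that follow. They were 0.49 over 21 transporters that run on the sodium gradient and 0.87 over 15 genes of potassium channels and clearance. Of all genes, 8.96% were at least 2-fold higher in this comparison and 3.94% lower. Of the transporters, 3 were at least 2-fold higher, the sodium and calcium exchanger Slc24a2 (3.43), the glial glutamate transporter Slc1a2 (1.98) and the chloride importer Slc12a2 (1.56). The choline transporter Slc5a7 was lower (−1.87), and Slc6a5 (−0.67) and Slc1a4 (−0.48) lay within 2-fold. Slc1a2 is also on the astrocyte marker list, and Slc5a7 was already named as a gene near to Fxyd6, so these are not separate observations. Of the potassium genes, 6 were at least 2-fold higher, led by the axonal channel Kcna1 (2.94), the glial channel Kcnj10 (2.04) and the channel subunit Kcnab2 (2.01). None was 2-fold lower, Kcnk2 (−0.90), Slc12a7 (−0.73) and Kcnd2 (−0.24) having the most negative differences. For the P14-labelled array against P1 these counts were 1 of 21, Slc24a2 (1.22), and 1 of 15, Kcna1 (1.03), with none lower. Of all genes, 1.37% were at least 2-fold higher there than at P1 and 0.101% lower.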

How the data were processed

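Total RNA from 4 pools of pontine nucleus was, per the labels' protocols, extracted with Trizol and column purification, converted to sense-strand cDNA and biotin-labelled for whole-transcript arrays. The authors deposited log2 signals for probe sets. Affymetrix Expression Console is the tool named in the submitters' processing notes, and how it summarised and normalised the probes, its version and the genome build are not stated there. That the scale is log2 was inferred from the range, 1.84 to 14.72. Precision is limited by having 1 array per age.

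Of 35556 probe sets, 21789 had 1 symbol in the platform's gene table, 1621 had several and 12146 were not named there; 21698 were matched by Entrez identifier to a RefSeq table for GRCm38.p6, used for names and gene neighbours. Values were not rescaled. Differences between arrays were taken per gene in Python 3.11.15 with pandas 2.3.3, checked on simulated arrays. Calls are by size, 2-fold. Named genes were all members, the other pump genes, up to 3 genes at either end of each pathway list and up to 3 of each marker list. The 3 nearest profiles per member were also named, leaving out predicted genes, small RNAs and olfactory or vomeronasal receptors. The pericyte markers, Barhl1, Col1a2, Slc17a6, Aldh1l1, Sox9, Aqp4 and Slc1a3 were named after their values were seen. So were the other markers given as exceptions to the order of their list's sum. Members and lists were chosen with earlier results of these data known. Promoter windows are from RefSeq; none was given for Atp1b2 or Fxyd7.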

Additional observations from a re-analysis of the deposited data

How the results depend on the processing

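The differences of the 6 members in the 6 comparisons moved by less than the SD between probe sets under 5 alternatives (180 values in all): the mean of all probe sets of a gene, probe sets chosen on the E17.5 and P1 arrays, quantile normalisation, centring on the median of genes past the filter, and a floor at the filter level. The largest shift was 0.11, and none changed sign. Counts of members 2-fold apart kept within 1.5 times of the value given in 45 of 48 planned cases. Among those 45, P5 against P1 gave 5 members in place of 4 under quantile normalisation (12.8% of all genes) and at 1.5-fold (30.5%). The member added was Atp1b2, at 1.03 after quantile normalisation. The exceptions came from a 1.5-fold threshold, which gave 2 members for P1 against E17.5 in place of 0 (5.92% of all genes), 2 for P14 against P5 in place of 1 (19.6%) and 3 for P14 against P1 in place of 1 (5.84%). Leaving out each array in turn, chosen after seeing the data, left 4 members with a 2-fold range without the E17.5 array (13.4% of all genes) or the P5-labelled array (5.99%), and 5 without P1 (18.3%) or the P14-labelled array (18.6%). Without the E17.5 array the range of Atp1b2 was 0.97 and that of Atp1b1 was 1.20. Likeness over 4 arrays depends on the measure: of the 3 genes nearest by Pearson's r, 1 was also among the 3 nearest by distance for each of Fxyd1 and Fxyd7, and 0 for each of the other 4 members. Without the P5-labelled array, 2 of the 3 remained for Atp1b1, 1 each for Atp1b3, Fxyd1 and Fxyd7, and 0 for Atp1b2 and Fxyd6; without the P14-labelled array, 2 remained for Fxyd6, 0 for Atp1b3 and 1 for each of the others. No paired analysis was possible because each age has 1 array. Background was not measured, so levels near 8.41, such as Fxyd1 at E17.5, give inexact differences.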

Other observations

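Several of these genes lie side by side on their chromosomes. In the RefSeq table, Fxyd5, Fxyd7, Fxyd1 and Lgi4 follow one another on chromosome 7, with Fxyd3 after Lgi4. Lgi4, which encodes a secreted protein of glia in peripheral nerve, had a signal of 6.94 at E17.5, 7.24 at P1, 8.20 on the P5-labelled array and 7.51 on the P14-labelled array, the same order as Fxyd1 but under the level filter throughout. Fxyd7 and Fxyd5 were lowest at P1, whereas Fxyd1 and Lgi4 were lowest at E17.5. On chromosome 9, Fxyd2 is the next coding gene to Fxyd6, and at 7.08, 7.19, 6.98 and 7.32 it stayed low while Fxyd6 stood between 10.32 and 12.19.

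The P-type superfamily holds other ion pumps and also lipid flippases. Of 14 other P-type ATPase genes over the level filter, the P5-labelled array had 2 at 2-fold or more above P1 and none as far below, with a median difference of 0.08, beside 8.96% and 3.94% of all genes and their median of 0.05. These were the plasma membrane calcium pumps Atp2b2 (1.25) and Atp2b3 (1.10), followed by the lipid flippase gene Atp10a (0.72). Atp11a (−0.25), Atp13a1 (−0.15) and Atp7a (−0.14), a copper pump, had the most negative differences. On the P14-labelled array none of the 14 was 2-fold apart from P1.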
